A study of Mus musculus with 3 samples.

Results

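The 10 claudin genes *Cldn1* to *Cldn8*, *Cldn10* and *Cldn11* were followed across the cell types of the embryonic mouse kidney. They were chosen by symbol, from a list that covers the claudins of the nephron, the collecting system and the blood vessels, and the rule itself uses no measured value, though the list was drawn up with earlier results of these data known. The matrices held 32285 genes, of which 32 were claudins, so 22 claudins stand outside the list. Claudins are small membrane proteins that span the membrane of epithelial and endothelial cells and pair across the gap between neighbours to build the tight junction. Some seal this gap, and others form pores that let selected ions or water pass between cells. Along the nephron and the collecting duct the set of claudins changes from segment to segment, which gives each segment its own leakiness, and several claudins come on as mesenchyme turns into epithelium.

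Single-cell transcriptomes were measured in whole kidneys of B6 mouse embryos at embryonic day E15.5, with 1 library in each of 3 groups. Enl-WT embryos (Enl+/+ *Wt1* GFPCre/+) carried unmodified Enl, and Enl-T1 embryos (Enl flox-T1/+ *Wt1* GFPCre/+) carried 1 copy of Enl that a Cre recombinase switches to the T1 mutation, a small insertion found in Wilms tumours. Enl-T1 TDI-11055 embryos had the Enl-T1 genotype, and the pregnant mothers received TDI-11055 orally once daily, 100 mg/kg, over E10.5 to E14.5. ENL, encoded by *Mllt1*, is a chromatin reader, whose pocket for acylated histones the inhibitor TDI-11055 occupies. The sample titles give no treatment for the other two groups, while the protocol names a vehicle. Every group, the controls included, carried the *Wt1* GFPCre knock-in, which replaces 1 copy of *Wt1*. The *Wt1* promoter drives Cre in progenitors of the nephron and the stroma, so the ureteric epithelium (tip, collecting duct and urothelium), which arises from another source, lies outside the cells in which the allele is switched. Kidneys of several embryos were pooled in each library with no map from cells to embryos, and the 3′ counts do not show the inserted residues, so the genotype labels were not checked by them.

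After filtering, 5233 cells of Enl-WT, 4144 of Enl-T1 and 2754 of Enl-T1 TDI-11055 remained, with 32029895, 44211633 and 43304356 counted molecules (unique molecular identifiers, UMIs). Depth differed, with a median of 5090, 9391 and 16931.5 UMIs a cell, and ribosomal protein genes took a median of 16.5%, 26.8% and 27.9% of the UMIs. Female cells made up 26.5%, 73.3% and 35.1% of the libraries, which shared 10 to 14 barcodes between pairs (5 to 8 among kept cells). Cells were clustered without claudin and tight junction genes and given 10 class names from marker genes: NP1 and NP2 (self-renewing and committed nephron progenitors), podocyte, proximal tubule, distal tubule with loop of Henle, ureteric tip, collecting duct, urothelium, stroma and endothelium. The names hold as "like" only, since the files held no cell types. The podocyte label was not borne out in Enl-T1: *Nphs1* was at 494, 18.3 and 120.2 CPM (UMIs of the gene per 1e6 UMIs of the class) in the 3 libraries, *Podxl* at 3002, 0 and 429 CPM, and the summed level of 12 podocyte markers at 42844, 1287 and 12748 CPM. The 37 Enl-T1 cells of that class are therefore called the cells that clustered with podocytes. The proximal tubule label was poorly borne out in both Enl-T1 libraries, with a summed level of 14 markers of 7195, 629 and 1041 CPM. Of the 5 clusters that make up the ureteric tip class, 4 were led by cell-cycle genes, with no tip marker among their 10 leading genes, and the other by *Wnt11*. Of the 4 NP1 clusters 3 were likewise led by cell-cycle genes.

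With 1 library in each group no test between groups was possible, and no p-value is given. Levels are CPM of the UMIs summed over the cells of a class, and 95% intervals, given in parentheses, cover counting error only, not embryos or libraries. Values come in the order Enl-WT, Enl-T1, then Enl-T1 TDI-11055 unless stated. The assay counts 3′ ends, so levels of different claudins are not ranked against each other.

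In mouse genome build GRCm38 the members were placed by the GENCODE M21 annotation. *Cldn3* (chr5:134986214-134987472, plus strand) and *Cldn4* (chr5:134945119-134946934, minus strand) are neighbours read in opposite directions, and *Cldn3* overlaps *Wbscr25* on the other strand. *Cldn1* (chr16:26356642-26371841, minus strand), *Cldn5* (chr16:18776847-18778262, plus strand) and *Cldn8* (chr16:88560828-88563183, minus strand) share chromosome 16. *Cldn2* (chrX:139800828-139811386), *Cldn6* (chr17:23679249-23682446), *Cldn7* (chr11:69964779-69967885) and *Cldn11* (chr3:31149920-31164324) are on the plus strand. *Cldn10* (chr14:118787908-118875489, plus strand) spans 87.6 kb with a pair of alternative starts, whose products differ in their first exon, and 3′ counts cannot tell these variants apart. It overlaps the small RNA gene *n-R5s51* on the other strand.

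The promoters of 4 members are shown because the results turn on these genes: *Cldn2*, which marked the proximal tubule, and *Cldn3*, *Cldn4* and *Cldn7*, which marked the ureteric epithelium and moved apart from each other. Each run is the 250 bases before the start in RefSeq (GRCm38.p6), read 5′ to 3′ on the strand of the gene. Capitals mark a TATA box (TATAAA) in *Cldn2* and an E-box (CAGGTG, here on the opposite strand) in *Cldn4*, and the windows of *Cldn3* and *Cldn7* held none of the letters searched.
Cldn2 (chrX:139800558-139800807, plus strand): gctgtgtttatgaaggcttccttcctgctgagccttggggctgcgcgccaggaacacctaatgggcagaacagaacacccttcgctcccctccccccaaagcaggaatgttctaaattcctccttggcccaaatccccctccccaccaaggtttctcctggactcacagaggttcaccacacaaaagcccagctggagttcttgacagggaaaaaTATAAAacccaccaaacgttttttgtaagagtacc
Cldn3 (chr5:134985964-134986213, plus strand): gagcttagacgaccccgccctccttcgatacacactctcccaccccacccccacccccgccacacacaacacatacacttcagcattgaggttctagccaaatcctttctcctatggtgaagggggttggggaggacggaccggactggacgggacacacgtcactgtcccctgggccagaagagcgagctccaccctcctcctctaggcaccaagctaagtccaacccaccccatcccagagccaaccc
Cldn4 (chr5:134946935-134947184, minus strand): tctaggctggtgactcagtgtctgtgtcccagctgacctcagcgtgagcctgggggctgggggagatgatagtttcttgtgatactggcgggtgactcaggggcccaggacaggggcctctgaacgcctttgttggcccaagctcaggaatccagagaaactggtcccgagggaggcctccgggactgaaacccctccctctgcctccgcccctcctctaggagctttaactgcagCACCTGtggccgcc
Cldn7 (chr11:69964529-69964778, plus strand): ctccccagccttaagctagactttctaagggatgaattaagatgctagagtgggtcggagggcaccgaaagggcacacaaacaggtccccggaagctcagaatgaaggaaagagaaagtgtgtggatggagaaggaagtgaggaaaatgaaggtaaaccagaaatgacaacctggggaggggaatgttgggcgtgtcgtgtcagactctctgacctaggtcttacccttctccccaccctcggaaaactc

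Both strands of the 250-base windows were searched for 4 motifs, chosen with the results known. Of 32851 RefSeq promoter windows, 17.2% held CAGGTG, 1.79% the grainyhead-like motif AACCNGTT, 6.43% the HNF1 core GTTAAT and 12.4% TATAAA. The 11 windows of 9 members held CAGGTG in 3 (*Cldn4*, *Cldn6* and a second start of *Cldn7*), AACCNGTT in 1 (*Cldn5*), GTTAAT in 2 (*Cldn1* and *Cldn10*) and TATAAA in 1 (*Cldn2*). No window was listed for *Cldn8*. A match is a description of letters and says nothing of whether a factor binds.

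*Cldn4* and *Cldn8*, which together form a paracellular chloride path in the collecting duct, were higher in the collecting duct and urothelium than in the ureteric tip in all 3 libraries. *Cldn4* was at 168 (157 to 180.2), 169 (157 to 181) and 129.6 (123 to 137) CPM in the ureteric tip and at 808 (767 to 851), 750.3 (713 to 789) and 765 (730.4 to 802) CPM in the collecting duct. In the urothelium it was at 650.5 (595 to 709.5), 511 (488 to 535) and 723 (671 to 777) CPM. Its collecting duct and urothelium intervals did not overlap in Enl-WT and Enl-T1, where the collecting duct was higher, but did in Enl-T1 TDI-11055. *Cldn8* was at 127, 137 and 105 CPM in the tip, 285, 229.6 and 258 CPM in the collecting duct and 286, 257 and 284 CPM in the urothelium. The last pair of classes had overlapping intervals in every library, so *Cldn8* did not separate them. Distal tubule and loop of Henle cells came next for both, with 86.6, 50.1 and 68.1 CPM of *Cldn4* and 72.0, 39.1 and 51.9 CPM of *Cldn8*. Within that class both sat mainly in the cluster led by *Slc12a1*, the salt cotransporter of the loop, where *Cldn4* was at 161, 72.6 and 121 CPM against 29.97, 36.0 and 26.4 CPM in the cluster led by *Sim1*.

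*Cldn3*, a sealing claudin, was highest in the collecting duct among the named classes and lower in the urothelium. It was at 363 (347 to 380.5), 431 (413 to 451) and 399.8 (388 to 412) CPM in the tip and 518 (485 to 552), 631 (597 to 667) and 700.2 (667 to 735) CPM in the collecting duct. In the urothelium it was at 112 (90.2 to 139), 105 (94.7 to 116) and 221 (193 to 252) CPM. Collecting duct, tip and urothelium kept this order in each library with no overlap of intervals between the highest and the next. Within the urothelium class the cluster led by *Upk1b*, a uroplakin gene of the urothelial surface, held the least, 33.1, 31.6 and 211 CPM, against 155, 151 and 225 CPM in the cluster led by *Spp1*. The Enl-T1 TDI-11055 value of the *Upk1b* cluster rests on 14 cells.

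*Cldn7*, a claudin of distal nephron and collecting duct that lies along the side of the cell as well as in the junction, was detected along the whole tubule. It was at 723 (684 to 763), 1887 (1827 to 1948) and 1172 (1129 to 1217) CPM in the collecting duct. In the urothelium it was at 642 (587 to 700.2), 1323 (1286 to 1360.5) and 1188 (1122 to 1258) CPM and in the tip at 388 (371 to 406), 893 (866 to 919.9) and 647 (631 to 663) CPM. Distal cells held 286, 538 and 454 CPM and proximal tubule cells 229.7, 384 and 282 CPM. In NP2 it was at 20.95, 27.9 and 38.4 CPM and in NP1 at 10.52, 16.4 and 8.25 CPM. The NP1 values lay near those of endothelium, 13.8, 20.6 and 15.1 CPM, a class expected to lack it. Counts at such levels in such classes can come from free RNA in the droplets, and *Cldn3*, *Cldn4* and *Cldn8* at 11.1, 8.13 and 5.59, 9.33, 10.3 and 3.35 and 5.18, 3.13 and 2.24 CPM in endothelium set the level read as background.

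*Cldn6*, known for its place in embryonic epithelia, was detected in every tubule class. It was at 277 (252 to 303), 103 (72.6 to 142) and 135 (111 to 163) CPM in the proximal tubule and 350.2 (323 to 379), 307 (283 to 332) and 268 (248 to 290.1) CPM in the collecting duct. Distal cells held 227, 167 and 179 CPM, the tip 231, 156 and 183 CPM and the urothelium 204, 100.3 and 208 CPM. The collecting duct was highest in each library, and its interval stood clear of the class below it. NP2 held 68.5, 10.8 and 27.4 CPM, with 94.2, 17.0 and 42.5 CPM in the cluster led by *Osr2* and *Lhx1* (late NP2) and 1.67, 8.27 and 13.5 CPM in the cluster led by *Wnt4* (early NP2). In NP1, the uncommitted progenitors, *Cldn6* was at 5.02, 4.46 and 4.80 CPM, of the order of its level in endothelium (10.4, 4.07 and 6.15 CPM).

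Pore-forming claudins marked the tubule segments. *Cldn2*, which forms a pore for cations and water in the proximal tubule, was at 153 (135 to 173), 2.79 (0.0705 to 15.52) and 8.54 (3.43 to 17.6) CPM there, from 265, 1 and 7 UMIs. Elsewhere it stayed at or below 3.26 CPM in every class and library, so in Enl-WT it set the proximal tubule apart from the next class, NP2, with no overlap. *Cldn10*, whose variants form an anion pore in the proximal tubule and a cation pore in the loop of Henle, was at 107 (92.2 to 124), 16.7 (6.13 to 36.4) and 12.2 (5.85 to 22.4) CPM in the proximal tubule. In distal cells it was at 46.8 (40.2 to 54.2), 28.7 (20.4 to 39.3) and 23.3 (18.4 to 29.2) CPM, with 74.4, 44.0 and 26.4 CPM in the cluster led by *Slc12a1*. The proximal tubule ranked above distal cells in Enl-WT, and the 2 intervals overlapped in each of the other libraries. In the collecting duct *Cldn10* was at 0, 0.497 and 0 CPM, under the level of 3 counts in every library.

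*Cldn5*, the sealing claudin of blood vessels that podocytes also carry, had its highest levels in 2 of the classes. It was at 631 (602 to 660.2), 608 (581 to 636) and 504 (472 to 538) CPM in endothelium. In Enl-WT podocytes it was higher, 1149 CPM, with intervals that did not overlap, while the 37 Enl-T1 cells that clustered with podocytes held 385 CPM and the 28 such cells of Enl-T1 TDI-11055 858 CPM. NP2 held 70.8, 34.7 and 48.8 CPM. In the collecting duct and stroma, where it is not expected, *Cldn5* was at 2.23, 0.994 and 0.426 and 5.87, 1.26 and 0.286 CPM.

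*Cldn1*, which seals the epidermis and in the kidney marks the parietal cells of the glomerular capsule, was detected in the proximal tubule, 45.1 (35.7 to 56.3), 8.36 (1.72 to 24.4) and 14.6 (7.57 to 25.6) CPM, and in stroma, 31.3 (26.1 to 37.2), 7.38 (5.87 to 9.16) and 13.7 (10.1 to 18.2) CPM. The intervals of these 2 classes overlapped in every library. Its stromal counts came mainly from the cortical cluster led by *Foxd1*, 62.6, 15.7 and 22.1 CPM, against 2.19, 1.44 and 0 CPM in the cluster led by *Nts*. Distal cells held 16.2, 17.7 and 21.2 CPM, and the 3 ureteric classes at most 1.48 CPM. Distal cells were the highest class in both Enl-T1 libraries, with intervals that overlapped those of the proximal tubule. *Cldn11*, the claudin of myelin and of Sertoli cells in the testis, was highest in stroma in each library, 27.4 (22.6 to 33.0), 41.4 (37.7 to 45.4) and 9.16 (6.27 to 12.9) CPM, with an interval that overlapped that of the next class in Enl-T1 TDI-11055 alone. It was at 66.7, 55.7 and 27.3 CPM in the *Nts* cluster and 98.3, 75.02 and 54.1 CPM in the small cluster led by *Lum* (53, 179 and 9 cells), and at 13.2, 24.8 and 1.88 CPM in the *Foxd1* cluster. The 2 stromal claudins thus had their highest levels in different stromal clusters.

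**Figure D1:**
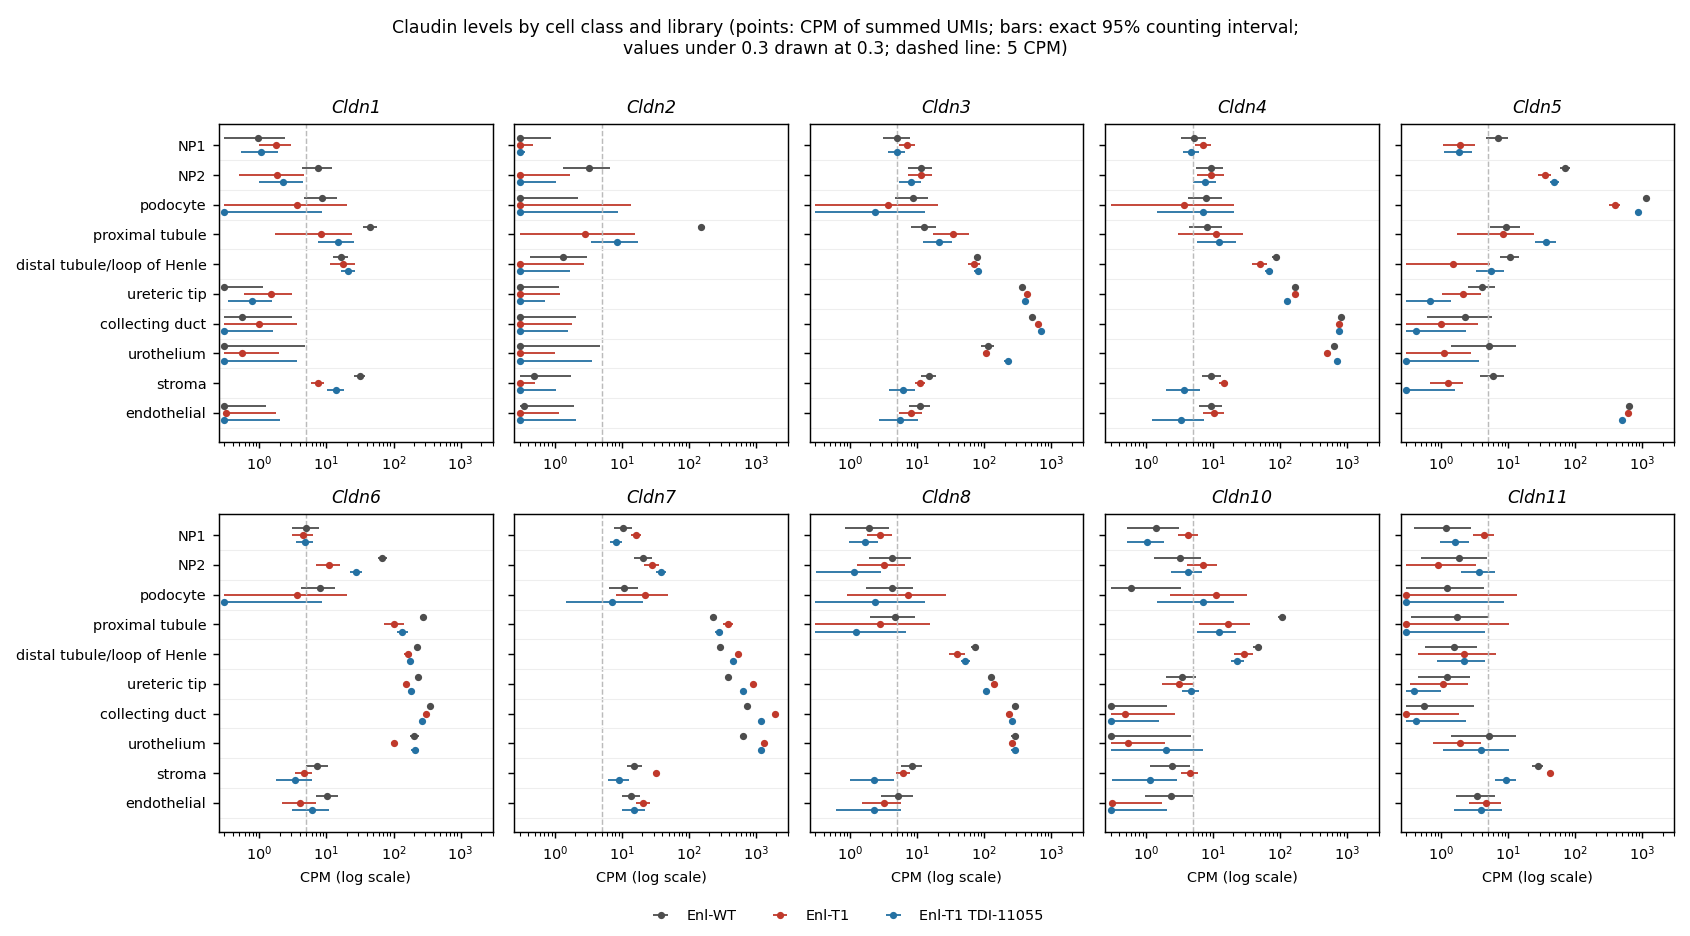
Level of each of the 10 claudins (x axis, CPM on a log scale) in 10 cell classes (y axis) of the 3 libraries, as points with exact 95% counting intervals; values under the left limit are drawn there, and the dashed line is at 5 CPM. *Cldn3*, *Cldn4*, *Cldn7* and *Cldn8* are high in the 3 ureteric classes, *Cldn2* in Enl-WT proximal tubule (153 CPM), *Cldn5* in podocytes and endothelium, and *Cldn11* in stroma.

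Along the ureteric epithelium the 5 claudins of the collecting system followed different courses. From the *Wnt11* cluster through clusters led by *Tm4sf20*, *Opcml*, *Aqp2* (the collecting duct) and *Tmem213*, *Cldn4* in Enl-WT went from 131 to 291, 425, 808 and 861 CPM. In Enl-T1 the same clusters gave 131, 288, 449.9, 750.3 and 667 CPM. In Enl-T1 TDI-11055 they gave 117, 235, 425, 765 and 1007 CPM. The level thus went up from tip to duct in each library, and the steps up to the duct exceeded the counting intervals. *Cldn3* stayed within a narrower range over these clusters, from 376 to 522 CPM in Enl-WT, and was lowest in the 2 urothelial clusters. The clusters led by *Tm4sf20*, *Opcml* and *Tmem213* kept no class name under the naming rule.

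**Figure D2:**
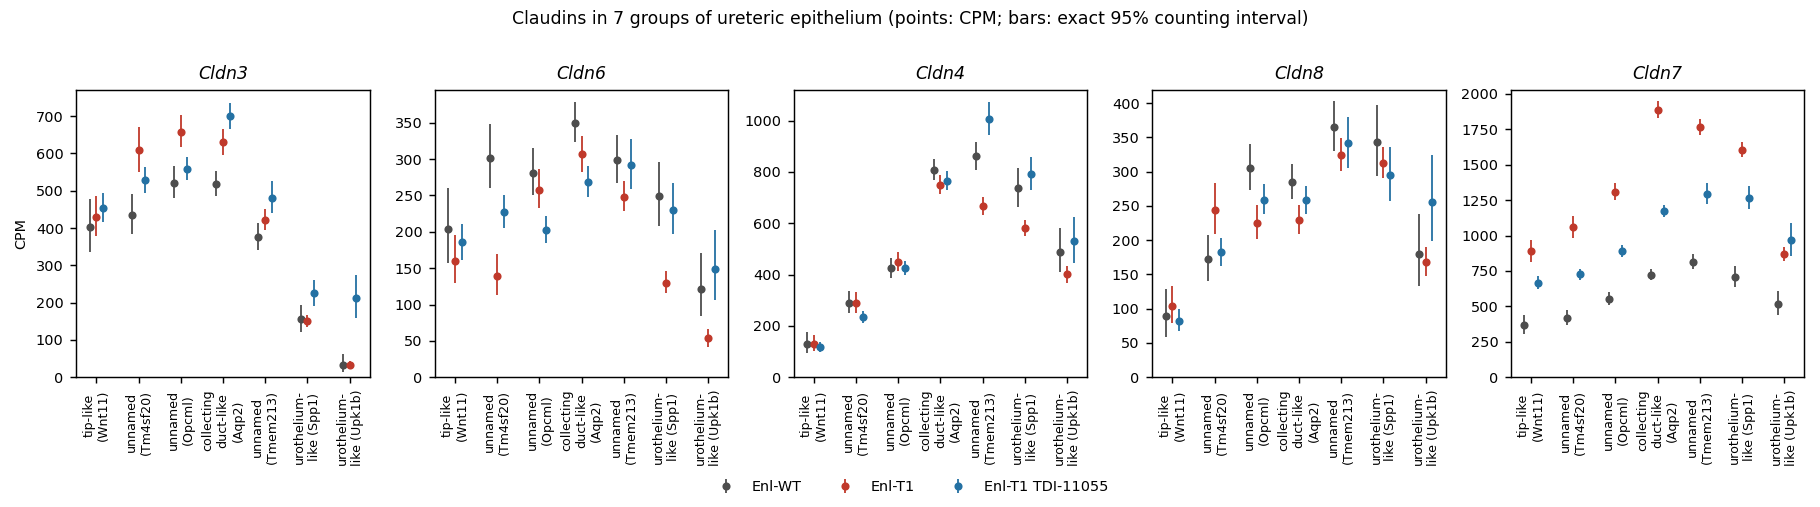
Level (y axis, CPM) of 5 claudins in 7 groups of ureteric epithelial cells (x axis, with the leading gene), from the *Wnt11* tip to the *Upk1b* urothelium, as points with exact 95% counting intervals for the 3 libraries. *Cldn7* in Enl-T1 lies above Enl-WT in every group (889 against 367 CPM in the *Wnt11* cluster and 1887 against 723 in the collecting duct), while *Cldn4* does not.

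The first comparison asks how the claudins differ between Enl-T1 and Enl-WT. A ratio was taken for a claudin and class with at least 5 CPM on average over both libraries and 30 cells in each, and a ratio past 2-fold was counted. Of 100 pairs of member and class, 60 could be compared, and each had to be high in at least 1 of the 2 libraries to be there. Enl-T1 was higher in 8 (13.3%) and lower in 15 (25%), with 37 within 2-fold and a median ratio of 0.916. Over all genes and classes, 4.82% of 102540 gene and class pairs were higher and 13.4% lower. The median gene was itself lower in Enl-T1, with ratios of 0.761 (NP2) to 0.863 (the podocyte class), so the claudin ratios stand against that shift. Scaled by the median of gene ratios 9 pairs were higher and 13 lower. With a scaling that leaves out mitochondrial, ribosomal protein and haemoglobin genes, 11 of 67 pairs were higher and 11 lower. Of the 8 and 15 pairs, 6 and 11 had an interval that leaves out 1.

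*Cldn7* was higher in Enl-T1 in all 10 classes, which share their libraries, and past 2-fold in 5 of them. These 5 were the collecting duct, tip and urothelium, the podocyte class, which rests on few counts, and stroma, at a level of the order of background. NP1 and endothelium, among the other classes, were near background too. In the collecting duct *Cldn7* went from 723 to 1887 CPM, a ratio of 2.61 (2.45 to 2.78). In the tip the ratio was 2.30 (2.18 to 2.43) and in the urothelium 2.06 (1.88 to 2.26). Each of these classes lies outside the cells in which the T1 allele is switched. *Cldn7* was the only one of 5 compared claudins past 2-fold upward in the tip, against 1.94% of all genes higher and 6.15% lower there. The same held in the collecting duct, against 2.97% higher and 10.1% lower, and in the urothelium, against 3.33% higher and 11.9% lower, where *Cldn6* was the 1 claudin of 5 that was lower, 0.490 (0.406 to 0.594), and fell inside 2-fold under the other scalings (0.543 and 0.632).

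The other claudins of these cells stayed within 2-fold, but for *Cldn6* in the urothelium. *Cldn6* had a ratio of 0.672 (0.612 to 0.738) in the tip and 0.876 (0.782 to 0.980) in the collecting duct. *Cldn4* had ratios of 1.00 (0.909 to 1.11) in the tip, 0.929 (0.864 to 0.999) in the collecting duct and 0.786 (0.712 to 0.868) in the urothelium. *Cldn8* had 1.08 (0.965 to 1.21), 0.806 (0.709 to 0.916) and 0.898 (0.775 to 1.04), and *Cldn3* had 1.19 (1.11 to 1.27), 1.22 (1.12 to 1.33) and 0.933 (0.738 to 1.19). Scaled by the median of gene ratios, the collecting duct ratio of *Cldn4* turned from 0.929 to 1.09 and that of *Cldn6* from 0.876 to 1.03, and in the urothelium *Cldn8* turned from 0.898 to 1.16 and *Cldn3* from 0.933 to 1.202, so no direction is given for these. The same scaling gave *Cldn7* 3.07 in the collecting duct, 2.76 in the tip and 2.66 in the urothelium.

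The share of cells with a *Cldn7* UMI moved with the level. After each cell was thinned to 2000 UMIs, *Cldn7* was found in 76.0% (69.1 to 82.0), 96.6% (92.3 to 98.9) and 86.0% (79.0 to 91.4) of collecting duct cells. In the tip the shares were 52.9% (49.3 to 56.5), 84.8% (80.6 to 88.4) and 71.0% (66.6 to 75.1). Without thinning they were 98.9%, 100.0% and 100.0% and 87.2%, 100.0% and 99.8%, where deeper libraries leave little room to differ. The share in endothelium, read as background, was 2.34%, 3.502% and 2.59%, with median depths there of 5663, 10456 and 14335.5 UMIs against 8360, 11536 and 16644 in the collecting duct. Thinned shares of the other duct claudins were 73.2%, 79.9% and 78.7% for *Cldn4* and 67.8%, 73.2% and 63.2% for *Cldn3* in collecting duct cells, and 45.4%, 34.2% and 33.1% for *Cldn8*.

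*Cldn7* was also higher in nephron tubules, by less than 2-fold. The ratio was 1.88 (1.71 to 2.07) in distal cells, where 1 of 8 compared claudins was lower (*Cldn5*) and none higher, against 10.1% of all genes lower and 3.64% higher. In the proximal tubule the ratio of *Cldn7* was 1.67 (1.37 to 2.04). In stroma *Cldn7* was at 15.4, 32.5 and 9.16 CPM, a ratio of 2.11 (1.61 to 2.80), but its thinned share there, 2.59%, 6.38% and 2.95%, and its level were of the order of the endothelial background. The distal ratio passed 2-fold under the other scalings (2.11 and 2.13). In male cells alone the *Cldn7* ratio was 2.33 in the tip and 2.54 in the collecting duct.

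Gene length moved with the ratios. Across 10271 genes in the tip the log2 ratio of Enl-T1 to Enl-WT had a Spearman correlation of -0.50 with exon length, and across 10147 genes in the collecting duct -0.47, as a description over genes that share their libraries. In the shortest 25% of genes the median ratio was 1.03 in the tip and 1.10 in the collecting duct, and in the longest 25% it was 0.676 and 0.667. *Cldn7* has 1948 exon bases and falls among them, as do *Cldn3* (1259), *Cldn4* (1816) and *Cldn8* (2356), whose ratios differed from that of *Cldn7* as given above. The part of length in the ratio of *Cldn7* was not tested.

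In the proximal tubule class, whose label was poorly borne out in Enl-T1, 4 of 8 compared claudins were lower in Enl-T1 and 1 was higher. Of all genes 24.9% were lower and 9.75% higher. *Cldn2* went from 153 to 2.79 CPM, a ratio of 0.0182 (0.000458 to 0.102) from 1 UMI in Enl-T1. *Cldn10* had a ratio of 0.156 (0.0566 to 0.346), *Cldn1* of 0.185 (0.0374 to 0.561) and *Cldn6* of 0.373 (0.259 to 0.521). *Cldn3* was higher, 2.63 (1.18 to 5.54), at 12.7 and 33.4 CPM. The claudins that were lower there thus include *Cldn2* and *Cldn10*, while *Cldn7*, given above, was higher by less than 2-fold.

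Markers of the proximal tubule moved with these claudins. All 14 markers on the list were lower in Enl-T1, their summed level was 7195, 629 and 1041 CPM, and *Cubn* and *Fbp1* were at 0 in Enl-T1. *Slc34a1*, the phosphate transporter, was at 499.9, 11.1 and 22.0 CPM, and *Lrp2*, the uptake receptor megalin, at 1143, 61.3 and 69.5 CPM. The class held 270, 31 and 73 cells. Of the 31 Enl-T1 cells 30 were female and none male, and in Enl-WT *Cldn2* was at 160 CPM in male and 158 CPM in female cells. The part of cell maturity in the ratios was not tested.

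Thinned shares in the proximal tubule were 20.97%, 0% and 1.37% for *Cldn2*, where 0 of 30 Enl-T1 cells allow a share of up to 10.0%, and the unthinned shares were 44.4%, 3.23% and 6.85%. For *Cldn10* they were 16.5%, 3.33% and 2.74% thinned and 34.4%, 12.9% and 8.22% unthinned, and for *Cldn6* 42.3%, 16.7% and 30.1% and 73.0%, 45.2% and 64.4%. Endothelial shares were at most 0.26% for *Cldn2*, 0 for *Cldn10* and at most 1.04% for *Cldn6* after thinning.

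In the distal class *Cldn10*, *Cldn8*, *Cldn4* and *Cldn6* were lower by less than 2-fold. *Cldn10* had a ratio of 0.614 (0.422 to 0.872), *Cldn8* of 0.543 (0.397 to 0.731) and *Cldn4* of 0.579 (0.439 to 0.753). *Cldn6* had 0.735 (0.632 to 0.852). The intervals of *Cldn3*, 0.901 (0.707 to 1.14), and *Cldn1*, 1.09 (0.651 to 1.77), included 1. In the *Slc12a1* cluster alone *Cldn4* passed 2-fold, 0.451 (0.312 to 0.636). The summed level of 10 loop of Henle markers in the class was 2087, 792 and 1059 CPM, with 8 of the 10 past 2-fold lower in Enl-T1, and in that cluster 49 of 52 Enl-T1 cells were female. *Cldn5* in distal cells was at 10.47, 1.47 and 5.52 CPM, near its level in classes that should lack it.

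**Figure D3:**
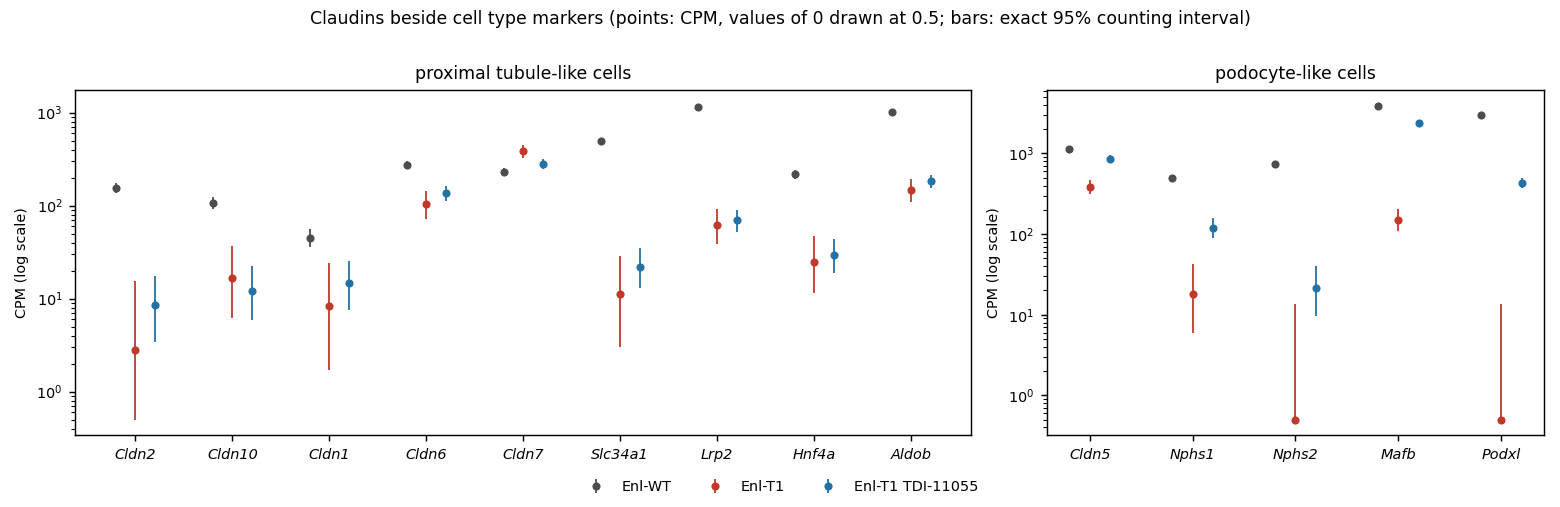
Levels (y axis, CPM on a log scale) of 5 claudins and 4 marker genes in proximal tubule cells (left) and of *Cldn5* and 4 markers in the podocyte class (right) of the 3 libraries, as points with exact 95% counting intervals. In the proximal tubule *Cldn2*, *Cldn10*, *Cldn1* and *Cldn6* are lower in Enl-T1 together with the markers (*Slc34a1* 499.9 and 11.1 CPM), while *Cldn7* is not.

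Among the cells that clustered with podocytes 5 of 8 compared claudins were lower in Enl-T1 and 2 higher, against 24.9% of all genes lower and 15.1% higher. For *Cldn5* the ratio was 0.335 (0.273 to 0.408), from 1894 and 105 UMIs. The others rest on few counts: *Cldn1*, *Cldn3*, *Cldn4* and *Cldn6* each had 1 UMI in Enl-T1, *Cldn7* had 6 UMIs, and *Cldn10* had 3 UMIs against 1. The thinned share with *Cldn5* was 85.0% (79.5 to 89.5), 48.6% (31.9 to 65.6) and 82.1% (63.1 to 93.9), and unthinned 97.3%, 70.3% and 100.0%, against thinned shares of 0.707%, 0.215% and 0% in stroma. All 12 podocyte markers were lower in Enl-T1, as given at the start, and 31 of the 37 cells were female. In endothelium, by contrast, the *Cldn5* ratio was 0.964 (0.904 to 1.03) and the thinned shares were 64.9%, 58.4% and 56.9%.

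In NP2 the embryonic claudin *Cldn6* was lower in Enl-T1, 0.158 (0.0981 to 0.244). The class was a different mix in each library, with 205, 46 and 190 cells of late NP2 and 120, 159 and 138 of early NP2. Within late NP2 the *Cldn6* ratio was 0.181 (0.0882 to 0.333), and within early NP2 4.95 (0.743 to 210.2), from 13 UMIs against 1. The summed level of 14 proximal tubule markers in the NP2 class was 348, 34.7 and 77.6 CPM. Of 8 compared, 7 were past 2-fold lower in Enl-T1 and 0 higher, against 16.7% and 3.55% of all genes. The part of cell maturity in the NP2 ratios was not tested. *Cldn5* had a ratio of 0.490 (0.368 to 0.649), which fell inside 2-fold under the other scalings (0.597 and 0.624). *Cldn5* differed between the 2 clusters of the class. It was at 28.4, 1.27 and 0.541 CPM in early NP2 and 87.1, 116 and 102 CPM in late NP2. Among male cells alone the NP2 ratio of *Cldn5* was 0.0329 and that of *Cldn6* 0.103. Thinned shares of NP2 cells with *Cldn6* were 12.1%, 2.44% and 6.75% and unthinned 27.4%, 9.76% and 18.9%. For *Cldn10*, at 3.26, 7.21 and 4.23 CPM in NP2, the ratio was 2.21 (0.861 to 6.36), with an interval that includes 1. In NP1 the 3 compared claudins, *Cldn3*, *Cldn4* and *Cldn7*, had ratios of 1.39, 1.35 and 1.56 at levels of the endothelial background.

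In stroma *Cldn1* was lower in Enl-T1, 0.236 (0.176 to 0.313), and its drop sat in the *Foxd1* cluster, 0.251 (0.186 to 0.338). *Cldn11* was higher by less than 2-fold, 1.51 (1.23 to 1.88). Its ratio was 0.835 (0.628 to 1.13) in the *Nts* cluster, 0.763 (0.481 to 1.26) in the *Lum* cluster and 1.87 (1.22 to 2.98) in the *Foxd1* cluster. The clusters held 242, 612 and 59 cells (*Nts*) and 387, 506 and 177 cells (*Foxd1*), so the mix of stromal clusters differed between libraries. Thinned shares of stromal cells were 5.54%, 1.15% and 2.95% for *Cldn1* and 6.36%, 7.74% and 2.58% for *Cldn11*, and unthinned 10.2%, 3.86% and 10.3% and 9.76%, 20.7% and 6.25%, against at most 0.389% and 0.779% of thinned endothelial cells.

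The second comparison asks how the claudins of Enl-T1 kidneys differ with and without TDI-11055. It shares the Enl-T1 library with the first, so a value that is off in that library moves both. Of 49 compared pairs Enl-T1 TDI-11055 was higher in 5 (10.2%) and lower in 4 (8.16%), with a median ratio of 0.898, against 3.19% of 89607 gene and class pairs higher and 4.65% lower. Scaled by the median of gene ratios 3 were higher and 4 lower, and without mitochondrial, ribosomal protein and haemoglobin genes 5 and 6 of 55. The podocyte class, with 28 cells, was not compared.

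*Cldn7* was lower with TDI-11055 in the ureteric epithelium, by less than 2-fold. The ratio to Enl-T1 was 0.621 (0.591 to 0.653) in the collecting duct, 0.725 (0.697 to 0.753) in the tip and 0.898 (0.843 to 0.957) in the urothelium. Against Enl-WT the same library stood at 1.62 (1.52 to 1.73), 1.67 (1.58 to 1.75) and 1.85 (1.67 to 2.06). Its level in Enl-T1 TDI-11055 thus lay between those of the other two in these 3 classes, as it did in distal cells, 0.844 of Enl-T1 and 1.59 of Enl-WT. In the collecting duct the other ratios to Enl-T1 were 1.11 for *Cldn3*, 1.02 for *Cldn4*, 0.875 for *Cldn6* and 1.12 for *Cldn8*.

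In the urothelium *Cldn3* and *Cldn6* were past 2-fold higher with TDI-11055. *Cldn3* had a ratio of 2.11 (1.78 to 2.49) and *Cldn6* of 2.08 (1.75 to 2.47), while *Cldn4* had 1.41 (1.30 to 1.54) and *Cldn8* 1.11 (0.966 to 1.26). Scaled by the median of gene ratios both fell under 2-fold, to 1.91 and 1.88. The class held 255 cells in Enl-T1 and 56 with TDI-11055, the summed level of 12 urothelium markers was 3373, 5254 and 2170 CPM, *Upk1b* was at 127, 210.3 and 41.5 CPM and *Krt5* was at 0 in Enl-T1 TDI-11055. The part of the mix of urothelial cells in these ratios was not tested.

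In NP2 *Cldn6* was higher with TDI-11055, 2.53 (1.61 to 4.14), though inside 2-fold with the strict cell filter (1.87) and at clustering resolution 1.2 (1.82), and stood at 0.40 (0.306 to 0.520) of Enl-WT. Within late NP2 the ratio to Enl-T1 was 2.499 (1.32 to 5.23) and within early NP2 1.63 (0.805 to 3.48). *Cldn5* there had a ratio of 1.41 (1.07 to 1.86). Late NP2 cells had a median of 7119, 13920.5 and 5341.5 UMIs a cell. The summed level of 10 erythroid markers in NP2 was 1658, 449 and 3326 CPM. The part of depth and of free RNA in the NP2 ratios was not tested. In the proximal tubule the ratio was 3.07 (0.394 to 138) for *Cldn2*, from 7 UMIs against 1, and 4.38 (1.36 to 22.4) for *Cldn5*, from 30 against 3. *Cldn10* had 0.730 (0.240 to 2.44) and *Cldn6* 1.31 (0.898 to 1.96). Against Enl-WT, *Cldn2* and *Cldn10* stood at 0.0557 (0.0222 to 0.116) and 0.114 (0.0538 to 0.214), so both were low in each Enl-T1 library. Of the 7 *Cldn2* UMIs of Enl-T1 TDI-11055, 6 were in 22 female cells (22.5 CPM) and 0 in 24 male cells (upper bound 9.22 CPM).

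In stroma *Cldn11*, *Cldn4* and *Cldn7* were past 2-fold lower with TDI-11055. *Cldn11* had a ratio of 0.221 (0.150 to 0.317), and 0.491 (0.302 to 0.761) and 0.0760 (0.0204 to 0.200) in the *Nts* and *Foxd1* clusters. *Cldn4* and *Cldn7*, with 0.257 (0.134 to 0.452) and 0.282 (0.190 to 0.405), were at 14.49 and 32.5 CPM in Enl-T1 stroma, of the order of background. So was *Cldn4* in endothelium, 0.325 (0.111 to 0.786). *Cldn1* had a ratio of 1.86 (1.28 to 2.69) and stood at 0.439 (0.308 to 0.616) of Enl-WT.

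**Figure D4:**
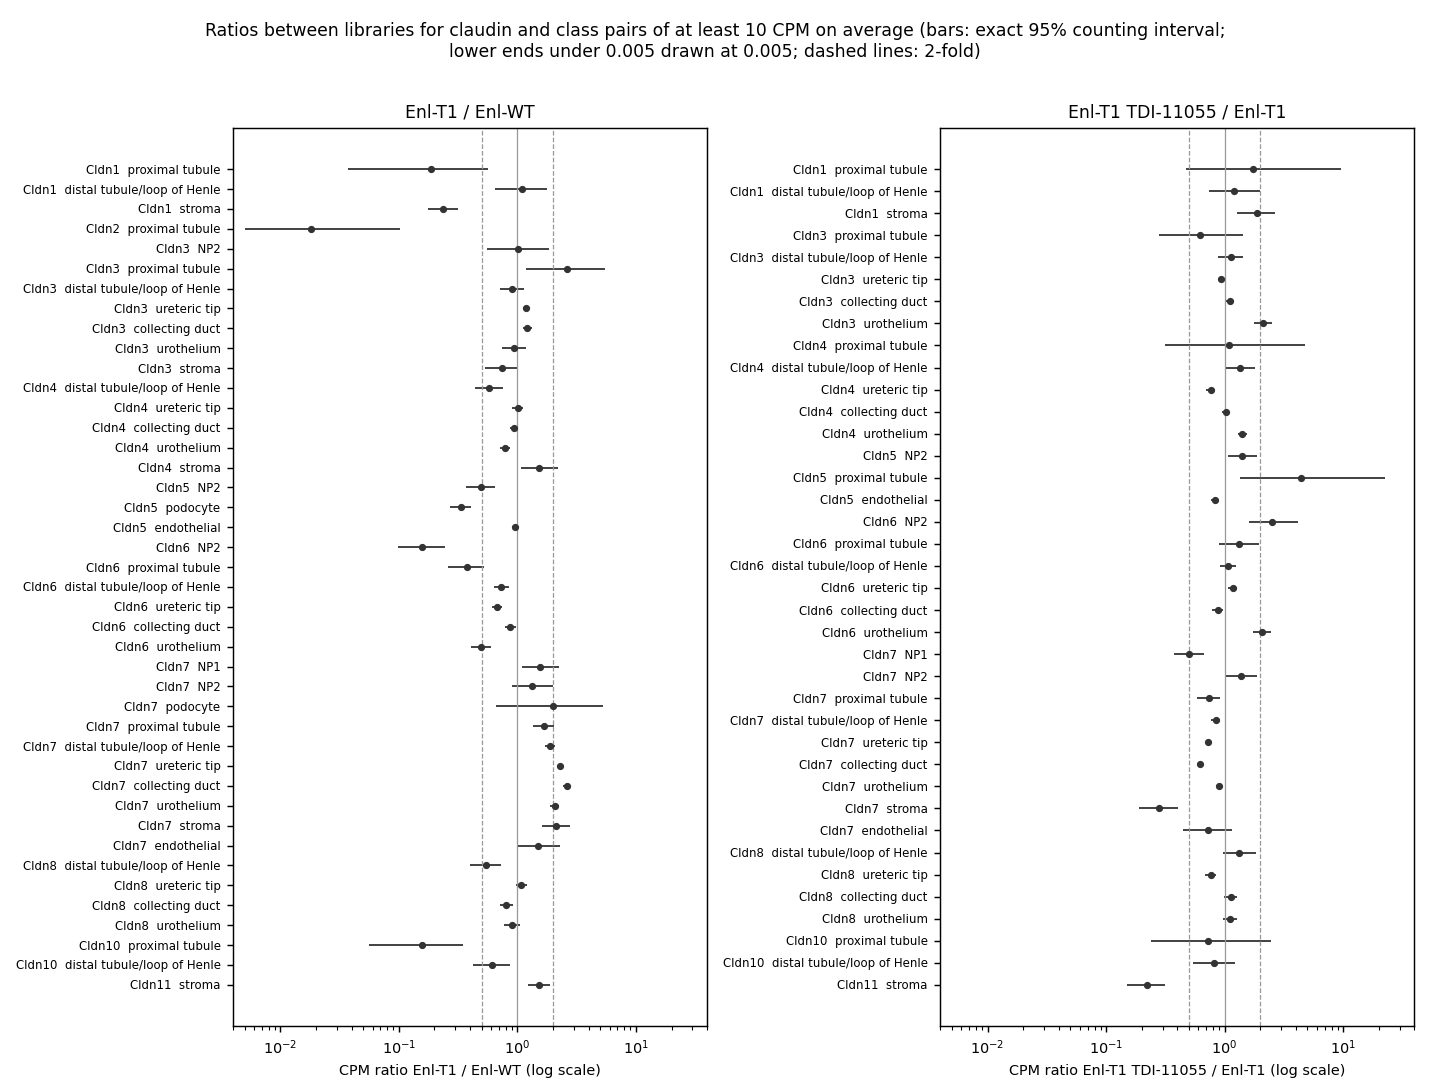
CPM ratio (x axis, log scale) of Enl-T1 to Enl-WT (left) and of Enl-T1 TDI-11055 to Enl-T1 (right) for each claudin and class (y axis) with at least 10 CPM on average, as points with exact 95% counting intervals; dashed lines mark 2-fold. *Cldn2* in the proximal tubule lies lowest on the left (0.0182), and *Cldn7* lies above 1 in each class shown there and under 1 in the collecting duct on the right (0.621).

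Over all kept cells of a library the claudins combine the make-up of the kidney with the level in each class, and fewer cells of a type and less RNA per cell cannot be told apart. *Cldn7* was at 232, 484 and 399 CPM, and at 232, 517 and 368 CPM when the 33 clusters were weighted by their Enl-WT shares of UMIs, so its difference stayed. For *Cldn5* the values were 128, 49.6 and 35.6 CPM and 128, 79.5 and 98.6 CPM weighted, so the Enl-T1 TDI-11055 value moved toward Enl-WT. *Cldn11* was at 5.06, 12.5 and 2.06 CPM and 5.06, 5.69 and 2.62 CPM weighted, which brought Enl-T1 near Enl-WT. *Cldn2* was at 8.90, 0.0679 and 0.3002 CPM and 8.90, 0.194 and 0.555 CPM, low in both Enl-T1 libraries either way. *Cldn10* was at 13.2, 4.12 and 4.25 and 13.2, 7.26 and 5.54 CPM, and *Cldn1* at 9.99, 3.51 and 3.67 and 9.99, 4.52 and 5.17 CPM. *Cldn6* was at 139.6, 72.9 and 110.0 and 139.6, 94.8 and 104 CPM. *Cldn3* was at 148, 147 and 211 CPM, with the highest value in Enl-T1 TDI-11055, and at 148, 174 and 173 CPM weighted, with both Enl-T1 libraries above Enl-WT. *Cldn4* and *Cldn8* were nearly level, 158, 159 and 153 and 83.0, 80.2 and 79.5 CPM.

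**Figure D5:**
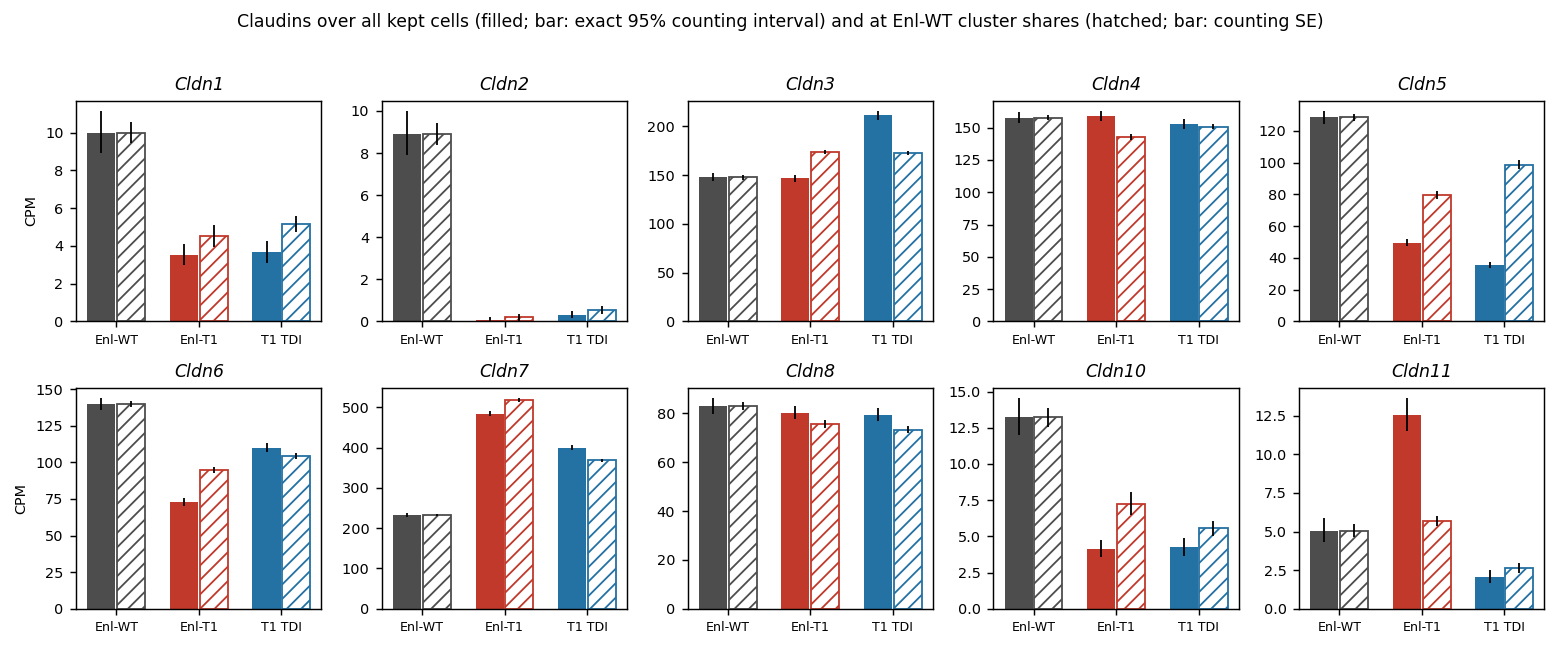
Level (y axis, CPM) of each claudin over all kept cells (filled bars, exact 95% counting interval) and with clusters weighted by their Enl-WT shares (hatched bars, counting SE) in the 3 libraries (x axis). *Cldn7* is higher in both Enl-T1 libraries in both kinds of bar (232, 484 and 399 CPM filled), and the *Cldn11* difference of Enl-T1 is small once weighted (5.06, 5.69 and 2.62 CPM).

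Several claudins were found in the same cell. After thinning to 2000 UMIs a collecting duct cell had UMIs of 3.12 ± 1.14, 3.28 ± 0.899 and 3.02 ± 0.931 of the 10 claudins (mean ± SD over 183, 149 and 136 cells). A urothelial cell had 2.29, 2.33 and 2.75, a tip cell 1.87, 2.10 and 1.93, a distal cell 1.28, 1.30 and 1.19 and a proximal tubule cell 1.25, 0.733 and 0.904. In NP1 the mean was 0.0759, 0.0956 and 0.0842, and 92.8%, 91.1% and 92.6% of cells had none. *Cldn4* and *Cldn7* were seen together in 54.1%, 77.9% and 66.9% of collecting duct cells, where the product of their single shares gives 55.6%, 77.2% and 67.7%. *Cldn4* and *Cldn8* were seen together in 33.9%, 24.2% and 24.3%, against products of 33.2%, 27.3% and 26.0%. Both observed shares lay near these products.

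Levels over classes and libraries tied some members together. Over 29 points (a class of a library with at least 30 cells), log2(CPM + 10) of *Cldn4* and *Cldn8* had a Pearson r of 0.985, *Cldn6* and *Cldn7* 0.923, and *Cldn1* and *Cldn10* 0.739. The points share libraries and classes, so these values describe and carry no test. *Cldn2* was at 153 CPM in 1 of the points and at most 8.54 CPM in the others, so its r values rest on that point. Among 10455 genes the profile most like that of *Cldn2* was *Slc13a1* (0.996), a sulphate transporter, followed by *Slc22a12* (0.995), the urate transporter, and *Aadac* (0.995). For *Cldn7* it was *Mapk13* (0.965), with occludin (*Ocln*, 0.959) and *Prr15l* (0.955) next. *Cldn4* was close to *Cldn8* and to *Mal2* (0.969), and *Cldn3* to *Bspry* (0.979), *Aldh1a3* and *9230102O04Rik* (both 0.971). *Cldn6* was closest to *Grb7* (0.981), *Crb3* (0.965) and *Elovl7* (0.963). *Cldn5* was closest to *Tm6sf1* (0.958), *Sema3g* (0.873) and *Npr1* (0.841), and *Cldn8* after *Cldn4* to *Mal2* (0.982) and *Rab25* (0.975). *Cldn11* was closest to *Pi15* (0.951), *Tbx18* (0.946) and *Aspn* (0.943). For *Cldn1* and *Cldn10* no gene passed 0.9: *Itga1* (0.825), *Il1rap* (0.804) and *Gpc4* (0.799) for *Cldn1*, and *D030045P18Rik* (0.881) and *Afp* (0.874) for *Cldn10*.

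Of the 22 claudins outside the list, 7 reached 5 CPM in a class. *Cldn19* and *Cldn16*, which form a cation path in the loop of Henle, were at 103, 21.03 and 43.0 CPM and 13.3, 15.3 and 10.4 CPM in the *Slc12a1* cluster. *Cldn9* was at 36.2, 49.7 and 49.8 CPM in the collecting duct and 30.1, 20.1 and 33.7 CPM in NP1, where the members were at background. *Cldn23* was at 66.5, 68.3 and 89.8 CPM in the urothelium and *Cldn12* at 46.9, 13.9 and 15.9 CPM in the proximal tubule. *Cldn34c1* and *Cldn15* reached at most 12.2 and 8.29 CPM. In distal cells *Cldn9* was at 19.9, 41.3 and 27.9 CPM, past 2-fold higher in Enl-T1, 2.08 (1.44 to 2.97), and in the tip its ratio was 1.45 (1.14 to 1.85). Past 2-fold lower in distal cells were *Cldn19*, 0.201 (0.108 to 0.346), and *Cldn12*, 0.414 (0.190 to 0.809). *Cldn12* was also lower in NP2, 0.296 (0.136 to 0.594), the proximal tubule, 0.297 (0.0940 to 0.722), and the urothelium, 0.452 (0.238 to 0.899). *Cldn12* in the podocyte class and *Cldn9* in the proximal tubule were lower too, with intervals that include 1.

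Other proteins of the tight junction were read from a list of 28 genes for scaffolds, occludin family members and junctional adhesion molecules. In the tip 0 of 26 compared genes were higher in Enl-T1 and 4 lower, against 1.94% and 6.15% of all genes, so the absence of higher ones is near the background. The median ratio was 0.612, against 0.823 for all genes and 0.676 for the longest 25% of genes. In the collecting duct 0 of 25 were higher and 5 lower, against 2.97% and 10.1%, with a median of 0.621 against 0.827 for all and 0.667 for the longest genes. In the urothelium 0 and 7 of 25 were, against 3.33% and 11.9%, with a median of 0.679 against 0.802 and 0.653. In the proximal tubule 0 and 9 of 24 were, against 9.75% and 24.9%, with a median of 0.666 against 0.802 and 0.692. In distal cells 0 and 5 of 26 were, against 3.64% and 10.1%, with a median of 0.607 against 0.841 and 0.692. In NP2 0 and 14 of 23 were, against 3.55% and 16.7%, with a median of 0.478 against 0.761 and 0.630. In stroma 0 and 10 of 17 were, against 2.84% and 8.89%, with a median of 0.477 against 0.808 and 0.676. In NP1 0 and 6 of 19 were, against 2.68% and 11.1%, with a median of 0.660 against 0.790 and 0.645. In the podocyte class 1 and 9 of 22 were, against 15.1% and 24.9%, with a median of 0.742 against 0.863 and 0.664. NP2 and stroma had the lowest of these medians. The part of gene length in these medians was not tested. *Tjp1*, the scaffold ZO-1 that binds claudin tails, was at 138, 60.0 and 47.6 CPM in the tip and 195, 106 and 94.1 CPM in the collecting duct, and *Ocln* was at 66.1, 52.6 and 51.7 and 138, 119.8 and 127 CPM. *Cgn*, the adaptor cingulin, had a ratio of 0.378 (0.320 to 0.445) in the collecting duct and *F11r*, a junctional adhesion molecule, 0.797 (0.678 to 0.937). With TDI-11055 the median ratio of the list to Enl-T1 was 0.881 in the tip, against 0.988 for all genes, and 1.03 in the collecting duct, against the same 1.03.

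Of 16 genes for adherens junctions, desmosomes and keratins, 14 could be compared in the ureteric classes. In the tip 1 was higher and 1 lower in Enl-T1, against 1.94% and 6.15% of all genes, with a median ratio of 0.926 against 0.823. In the collecting duct 0 and 1 were, against 2.97% and 10.1%, with a median of 0.883 against 0.827, and in the urothelium none, against 3.33% and 11.9%, with a median of 0.782 against 0.802. In the proximal tubule 6 of 14 were lower and none higher, against 24.9% and 9.75%, with a median of 0.609 against 0.802 and *Krt8* at 530.0 and 52.9 CPM. In NP2 6 of 12 were lower and 1 higher, against 16.7% and 3.55%, with a median of 0.569 against 0.761. In the podocyte class 3 of 10 were lower and 4 higher, against 24.9% and 15.1%. In distal cells 0 of 14 were lower and 1 higher, against 10.1% and 3.64%. In NP1 0 of 7 were lower and 2 higher, against 11.1% and 2.68%. In stroma 0 of 8 were lower and 1 higher, against 8.89% and 2.84%. *Cdh1*, which encodes E-cadherin, was at 152, 96.6 and 81.4 CPM in the tip and 405, 283 and 212 CPM in the collecting duct, and *Epcam* was at 1471, 1315 and 1274 and 1318, 1340.2 and 1279 CPM. Of 10 mesenchyme genes 7 could be compared in the proximal tubule, where 2 were higher in Enl-T1 and none lower, against 9.75% and 24.9% of all genes, with a median of 1.81 against 0.802. The summed level of the 10 genes there was 324, 292 and 177 CPM, so it was not higher in Enl-T1. In the tip 3 could be compared, of which 1 was lower and none higher, against 6.15% and 1.94%, with a median of 0.517 against 0.823. The median was 1.14 in NP2, 1.02 in the podocyte class and 0.970 in NP1, against 0.761, 0.863 and 0.790 for all genes. It was 0.956 in distal cells and 0.875 in stroma, against 0.841 and 0.808. With 2 genes compared in each, it was 0.770 in the collecting duct and 0.468 in the urothelium, against 0.827 and 0.802.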

How the data were processed

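The deposited matrices held UMI counts per gene and barcode for 3 single-cell libraries of mouse embryonic kidney; the authors made these counts from the reads, and the submitters' processing notes name Cell Ranger 6.1.2 and mm10. Barcodes with 1000 to 6000 genes and at most 10% mitochondrial UMIs were kept (72.8%, 63.0% and 42.7% of 7186, 6575 and 6453 barcodes). Cells were clustered with Seurat 5.3.0 in R 4.3.3 (resolution 0.8) without 62 claudin and tight junction genes and 130 technical genes, which gave 33 clusters. Clusters took the class with most markers among their 10 leading genes, with ties settled by the mean log2 fold of the markers. With no such marker that mean had to be above 0, as for the cell-cycle clusters of NP1 and tip, and at least 3 markers had to be detected. The rule was adjusted after the clusters were seen: haemoglobin genes were left out of leading genes, and a cluster with 1 own leading marker was named whatever that mean. Doublets stayed in and were left out as an alternative (Scrublet in scanpy 1.11.5, by its automatic threshold in Enl-WT and Enl-T1 and by the highest scores in Enl-T1 TDI-11055, where that threshold marked 0.0726% of cells).

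Counts were summed per class and library and divided by all UMIs of the class. Intervals are exact at 95% (Poisson, binomial, and a binomial split of counts for ratios, in scipy 1.17.1), and at least 30 cells per library and 5 CPM on average were needed for a ratio. They were tested on simulated data, where in the tip 0.0687% and in the proximal tubule 10.3% of unchanged genes passed 2-fold. Cells were called male or female from sex-linked transcripts. Shares were taken after thinning each cell to 2000 UMIs. The member list, gene lists and motifs were chosen with earlier results of these data known. All members were named, with other claudins at 5 CPM or more, up to 3 genes of most similar profile (some of which are not reported here) and up to 4 examples of each list. Alternatives were 2 other scalings, a 1 CPM minimum, a strict cell filter (2000 to 6000 genes, at most 5% mitochondrial UMIs), doublets left out, clustering on all variable genes, resolution 1.2, male cells only, no thinning and thinning to 1000 UMIs.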

Additional observations from a re-analysis of the deposited data

Results flagged for a closer look

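The *Cldn10* ratio of Enl-T1 to Enl-WT lay on opposite sides of 1 in different cell classes, but the upward side rests on few counts. In the cells that clustered with podocytes the ratio was 18.1 (1.46 to 952), from 3 UMIs against 1. The thinned share of that class with *Cldn10* was 0% in both libraries. In the proximal tubule the ratio was 0.156 (0.0566 to 0.346), from 6 against 185. The difference between these ratios was not tested, since there was 1 library in each group.

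*Cldn7* was also higher in Enl-T1 in ureteric clusters that had no class name and so entered none of the class comparisons. The ratio was 2.53 in the cluster led by *Tm4sf20*, 2.36 in the cluster led by *Opcml* and 2.17 in the cluster led by *Tmem213*. These differences were not tested either.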

How the results depend on the processing

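No paired analysis was possible because the results come from no test and each group has 1 library. Of the pairs of claudin and class, 8 were past 2-fold upward and 15 downward from Enl-WT to Enl-T1. The higher count was 5 with the strict cell filter, 5 at resolution 1.2 and 4 in male cells only. The lower count was 24 with a 1 CPM minimum, 3 with the strict filter and 8 in male cells only. With TDI-11055 against Enl-T1 (5 higher, 4 lower), the higher count was 3 with median-of-ratios scaling, 9 with a 1 CPM minimum, 0 with the strict filter and 2 at resolution 1.2. The lower count was 11 with a 1 CPM minimum, 7 with the strict filter, 7 with doublets left out and 7 in male cells only. With a 50 CPM minimum, an alternative chosen after seeing the data, these 4 counts were 3, 6, 2 and 0. An interval that leaves out 1, also chosen after seeing the data, left 6, 11, 4 and 4. The stricter settings also compare fewer pairs, and other causes were not tested.

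Of 214 recomputed ratios, 33 moved by more than their counting interval. With the strict filter the Enl-T1 over Enl-WT ratio was 2.62 for *Cldn11* in stroma, 2.45 for *Cldn7* in distal cells and 0.839 for *Cldn5* in NP2. In male cells the same ratio of *Cldn1* in stroma was 0.101. With TDI-11055, male cells gave *Cldn1* in stroma a ratio to Enl-T1 of 3.60, with *Cldn5* in NP2 at 18.3 and *Cldn6* in NP2 at 6.67. With the strict filter *Cldn5* in NP2 turned from 1.41 to 0.632 in the second comparison. Of 72 recomputed shares 63 moved, since thinning sets their level.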

Other observations

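The nephron cluster led by *Sst*, which had no class name, held 43 cells of Enl-WT, 227 of Enl-T1 and 16 of Enl-T1 TDI-11055. *Cldn5* there was at 308 (245 to 383), 2.06 (0.561 to 5.27) and 73.5 (43.6 to 116) CPM, from 82, 4 and 18 UMIs. Enl-T1 was thus low in this cluster while it held most of the cells. In the lymphatic endothelial cluster (17, 23 and 3 cells) *Cldn5* was at 1221, 1458 and 987 CPM, above the 608, 544 and 488 CPM of the blood vessel cluster in each library.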
